A study of Mus musculus with 6 samples.

Results

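A set of 10 genes that carry the insulin signal or move glucose into cells were followed in the hearts of WT mice and of TG-PKR1 mice. They were taken as every array probe, controls aside, whose gene name in the files was Insr, Irs1, Irs2, Pik3r1, Akt1, Akt2, Slc2a1, Slc2a4, Foxo1 or Pck1. This gave 15 probes of 8 genes among 41174 probes that carry 27745 names. No probe bore the name Irs2 or Pck1, and both genes were not analysed here. Of the 15 probes, 13 probes of 7 genes lay among the 20000 probes with the highest median signal, over which the main test was run. The probe of Insr and 1 of the 2 probes of Irs1 lay outside it and were read in the same fit over all 41174 probes.

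Insulin binds a receptor tyrosine kinase on the cell surface, which phosphorylates adaptor proteins called insulin receptor substrates. These recruit phosphoinositide 3-kinase, whose lipid product brings AKT kinases to the membrane, and AKT then releases vesicles that carry the glucose transporter GLUT4 to the surface of muscle and fat cells. AKT also keeps FOXO transcription factors out of the nucleus, and FOXO factors in turn raise genes of the fasted state such as Pck1 in liver. Much of this control acts on proteins, by phosphorylation and movement between compartments, which an RNA measurement does not read.

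RNA of whole hearts was hybridized to single-dye Agilent arrays, 1 per heart, from 3 WT and 3 TG-PKR1 mice. All were males of 12 weeks on a C57BL6/J background. TG-PKR1 mice overexpress the prokineticin receptor PKR1 in cardiomyocytes, driven by the alpha myosin heavy chain promoter, and WT mice do not carry the transgene. A whole heart also holds endothelial cells, fibroblasts, blood cells and fat, and in such samples fewer cells of a type and less RNA per cell cannot be told apart. Hearts are named A, B and C within each group, and these letters do not match a WT mouse with a TG-PKR1 mouse.

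Values are normalized log2 signals, on which a difference of 1 is a 2-fold change, and each difference is TG-PKR1 minus WT with its standard error (SE). The arrays had 19650 to 24923 probes well above the local background. An extended dynamic range was used to read WT A, TG-PKR1 B and TG-PKR1 C, a single scan was used for the other 3 arrays, and WT B and TG-PKR1 A shared a slide. Prokr1, which encodes PKR1, had a probe that was well above background on 0 of 6 arrays, which gave no check of the genotype. All 12 cardiomyocyte marker genes were well above background on every array, while of 5 hepatocyte markers with a probe, 2 were so on every array and 2, Apoa1 and Ttr, on none.

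No member passed the test. In limma with Benjamini-Hochberg adjustment over 20000 probes, 0 member probes were called lower, beside 0.095% of all probes (19), and 0 were called higher, beside 0% of all probes. At an unadjusted limma p under 0.05 the count was also 0 of 13, against 2.38% of all probes. SAM, a permutation method, called 0 members and 54 probes in all, every one of them lower in TG-PKR1 hearts. The mean was higher in TG-PKR1 hearts for 11 of the 13 member probes (84.6%, against 58.2% of all probes), with a median difference of 0.15 against 0.03 over all probes. Of these 13 probes, 8 belong to the 3 kinase genes. Within the extended-range arrays 6 of 13 were higher and the median was -0.08, and with a heart left out the median was between 0.05 (without WT C) and 0.24 (without WT A). The differences ranged from -0.14 for a Foxo1 probe to 0.26 for an Akt2 probe. Every one of the 13 had an adjusted p of 0.9999 in limma. For single probes a two-sided exact permutation test of the hearts is given as well, which with 3 against 3 cannot go below p = 0.1. The 3 hearts of each group did not overlap for 1 member probe lower in TG-PKR1 hearts, beside 2.73% of all probes, and for 0 higher, beside 2.68%.

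**Figure D1:**
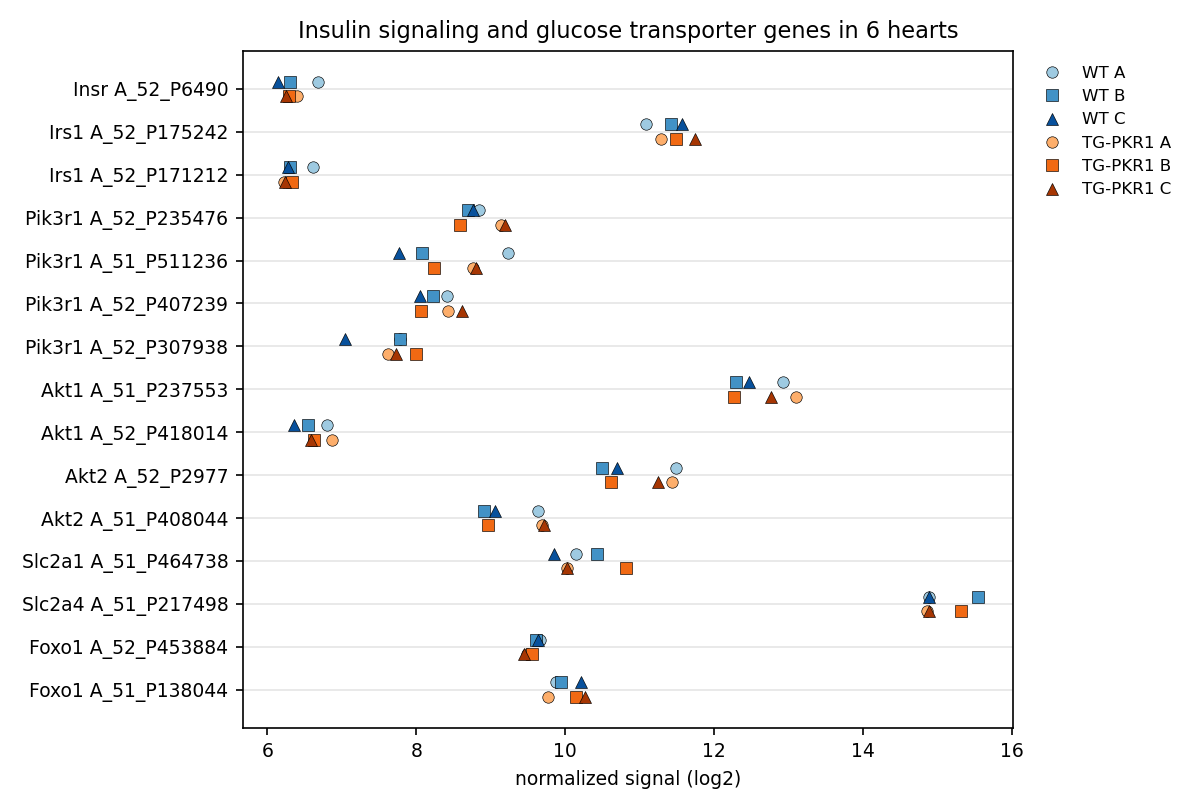
Normalized log2 signal (x axis) of each of the 15 member probes (y axis) in each heart, with WT hearts in blue above and TG-PKR1 hearts in orange below the line of the probe. The hearts of the groups interleave for every probe except Foxo1 A_52_P453884, where the TG-PKR1 hearts (9.44 to 9.55) lie below the WT hearts (9.61 to 9.67), and levels of different probes cannot be set against each other.

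Insr, the gene of the insulin receptor itself, was close to the detection limit. Its probe A_52_P6490 (chr8:3159473-3159532 on the mm8 build, minus strand) was well above background on 4 of 6 arrays. The signal was 6.69, 6.31 and 6.14 in the WT hearts, in the order of their letters, and 6.39, 6.29 and 6.25 in the TG-PKR1 hearts. The TG-PKR1 hearts lay inside the range of the WT hearts. The difference was -0.07 (SE 0.15, 95% interval -0.43 to 0.30), so at this signal a modest rise or fall of this gene would not have been seen.

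Irs1, the substrate that couples the receptor to phosphoinositide 3-kinase, was read by 2 probes of unlike quality. Probe A_52_P175242 (chr1:82112141-82112200, minus strand) gave 11.08, 11.42 and 11.57 in WT hearts and 11.29, 11.49 and 11.74 in TG-PKR1 hearts. Each group spanned more than the distance between the group means, with TG-PKR1 C highest and WT A lowest. The difference was 0.15 (SE 0.19, 95% interval -0.28 to 0.58, exact permutation p = 0.5), and it was 0.0089 without WT A. Probe A_52_P171212 (chr1:82116013-82116072) was well above background on 4 of 6 arrays and gave 6.61, 6.30 and 6.27 in WT against 6.22, 6.33 and 6.24 in TG-PKR1 hearts. Its difference was -0.13 (SE 0.10, 95% interval -0.39 to 0.13), opposite in sign to that of the brighter probe, with neither interval clear of 0.

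The promoter of Irs1 is shown beside that of Irs2, its paralog without a probe here, because the same motif pair lies in both. The sequences are from RefSeq (GRCm38.p6), and the set of windows used here covered 8 of the 10 members (13 windows). Insr and Slc2a4 had no window in that set. Only the 250 bases before each start site were searched, on both strands, for the E-box CACGTG and for the insulin response core, CAAAACA or, on the other strand, TGTTTTG. Capitals mark these motifs, which share bases in Irs1 and lie 1 base apart in Irs2, and both stretches are on the minus strand, read 5′ to 3′.
Irs1, chr1:82291519-82291579: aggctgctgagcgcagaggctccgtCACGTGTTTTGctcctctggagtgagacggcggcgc
Irs2, chr8:11008935-11008998: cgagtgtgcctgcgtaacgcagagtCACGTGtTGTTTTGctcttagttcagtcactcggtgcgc
Of 32851 RefSeq windows, 6.02% held the E-box, 5.56% the insulin response core, and 7 windows (0.0213%) held both with first letters at most 10 bases apart. The pair was picked out after the sequences were seen, and a match describes letters, not a bound site.

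For the kinase genes, the TG-PKR1 mean was above the WT mean with 8 of 8 probes, by a median of 0.20, and none passed the test. That direction held for 2 of 8 probes within the extended-range arrays, and with scaling to the 75th percentile 1 probe of Akt1 turned below the WT mean. With a heart left out the median was between 0.08 (without WT C) and 0.39 (without TG-PKR1 B). Pik3r1 encodes the p85 alpha regulatory subunit of phosphoinositide 3-kinase, which docks on the substrates. Its probe A_52_P235476 (chr13:102781860-102781919, minus strand) gave 8.84, 8.69 and 8.76 in WT hearts and 9.14, 8.59 and 9.19 in TG-PKR1 hearts. TG-PKR1 A and C were above every WT heart and TG-PKR1 B was below every WT heart, for a difference of 0.21 (SE 0.19, exact permutation p = 0.4), which ran from 0.10 (without TG-PKR1 C) to 0.40 (without TG-PKR1 B) with a heart left out. Probe A_51_P511236 gave 9.24, 8.08 and 7.77 in WT and 8.76, 8.23 and 8.81 in TG-PKR1 hearts, and its spread within a group (pooled SD 0.59) was larger than that of 97.3% of all probes. WT A was the highest of the 6 hearts and WT C the lowest, and the difference was 0.24 (SE 0.36). Probe A_52_P407239 gave 8.42, 8.22 and 8.05 against 8.43, 8.06 and 8.62, a difference of 0.14 (SE 0.19), which ran from 0.02 (without TG-PKR1 C) to 0.29 (without TG-PKR1 B) with a heart left out. Probe A_52_P307938, whose ends lie 1043 bases apart in the genome and which therefore crosses an intron, gave 7.78, 7.79 and 7.04 against 7.62, 7.99 and 7.72, a difference of 0.24 (SE 0.23). The 4 differences lay between 0.14 and 0.24, and each probe overlapped between the groups. Within the extended-range arrays 2 of the 4 were below 0, with -0.72 for A_51_P511236, and within the shared slide A_52_P307938 was -0.17. Without WT C the difference was -0.054 for A_51_P511236 and -0.00372 for A_52_P307938.

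Akt1, one of the serine/threonine kinases that pass the signal on, was read by 10 spots of probe A_51_P237553 (chr12:113101676-113101735, minus strand). The signal was 12.92, 12.29 and 12.47 in WT hearts and 13.10, 12.27 and 12.76 in TG-PKR1 hearts. The highest and lowest of the 6 hearts were both TG-PKR1, A and B, and the difference was 0.15 (SE 0.25, exact permutation p = 0.8). The dimmer probe A_52_P418014, which spans 9267 bases, gave 6.80, 6.55 and 6.37 against 6.87, 6.63 and 6.59, a difference of 0.12 (SE 0.17). Its signal was only 1.15 to 3.59 times the local background, and its difference was -0.27 where arrays were scaled to their 75th percentile instead of by loess. It was 0.65 with both processed signals and that scaling, and 0.02 (without WT C) to 0.24 (without WT A) with a heart left out.

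Akt2 is the AKT isoform most tied to insulin-stimulated glucose uptake. Probe A_52_P2977 (chr7:27347600-27347659, plus strand) gave 11.49, 10.49 and 10.70 in WT hearts and 11.43, 10.61 and 11.24 in TG-PKR1 hearts. WT A lay with TG-PKR1 A and C, and WT B and C with TG-PKR1 B, so that the gap in the data ran across the genotypes. The difference was 0.20 (SE 0.30, exact permutation p = 0.8). Probe A_51_P408044, the member probe with the largest difference in the main setting, gave 9.63, 8.91 and 9.05 against 9.68, 8.96 and 9.72, a difference of 0.26 (SE 0.26, 95% interval -0.35 to 0.86, exact permutation p = 0.5). With processed signals scaled to the 75th percentile Akt1 A_52_P418014 was larger (0.65 against 0.19). Another member probe was also larger with normexp and quantile normalization, with mean signals, with scaling to the 75th percentile alone and with scan mode as a block. This was so within each scan mode and the shared slide too. With a heart left out the difference of A_51_P408044 ran from 0.11 (without WT B) to 0.50 (without TG-PKR1 B). It was then the largest of the member probes only without TG-PKR1 B. The Pik3r1 probe A_51_P511236 had a larger difference without WT A (0.68 against 0.47), without TG-PKR1 A (0.16 against 0.14) and without TG-PKR1 C (0.14 against 0.12). Other member probes had larger ones without WT B and without WT C. The Akt2 probe showed the same division of the hearts, with 0.58 between the third and the fourth heart. Its pooled SD of 0.41 was larger than that of 87.8% of all probes.

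**Figure D2:**
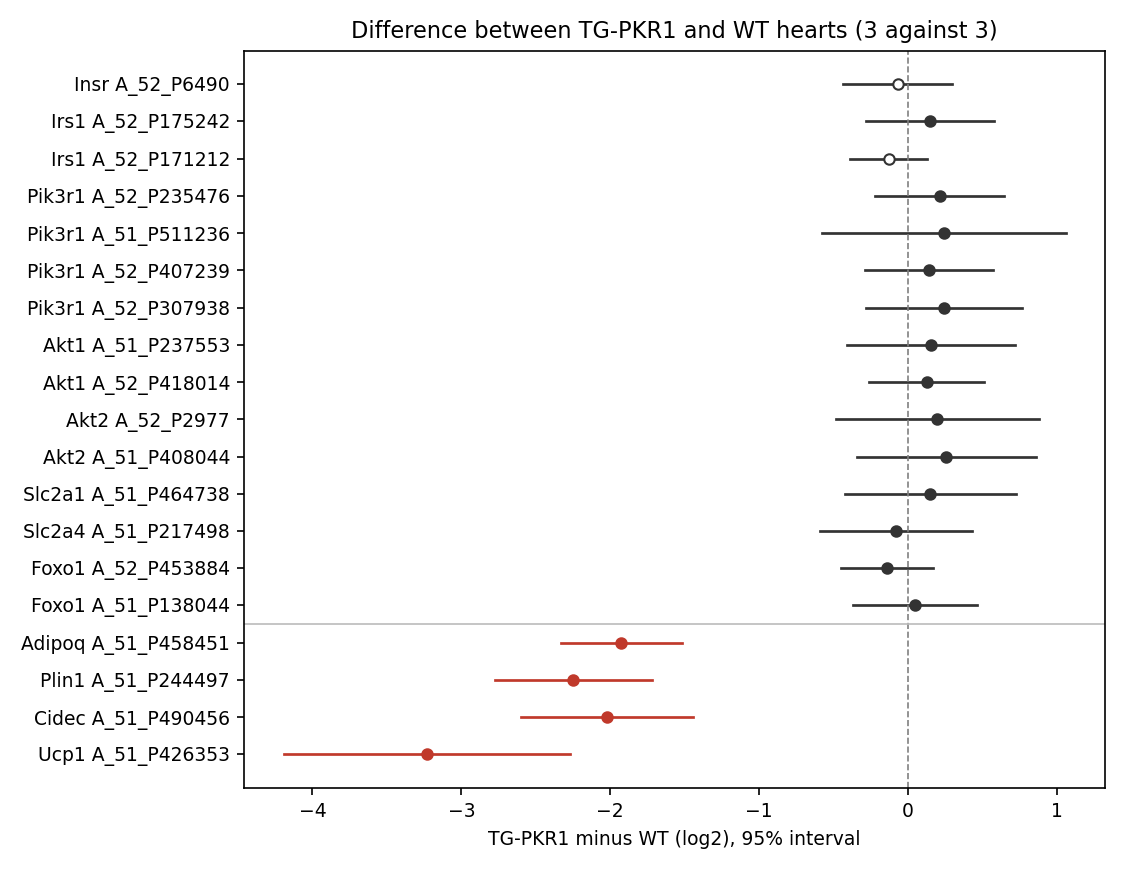
Difference TG-PKR1 minus WT in log2 units (x axis) with its 95% interval from limma, for the 15 member probes (black, with open circles for those outside the 20000 brightest) and for the fat cell genes Adipoq, Plin1, Cidec and Ucp1 (red). Every member interval includes 0, while the 4 red intervals all lie below -1.4.

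The probe of the largest difference in the main setting, Akt2 A_51_P408044, was compared with the profiles of all other probes. The measure was the root mean square difference, over the 6 hearts, between the deviations of each probe from its own mean of all 6 hearts. The nearest were Ptdss1 (0.04 log2), an enzyme of phosphatidylserine synthesis, Pip4p1 (0.04), a phosphoinositide phosphatase, Tex261 (0.05), Gle1 (0.05), which acts in mRNA export, and the probe named Centg3 (0.05). The other Akt2 probe was at 0.11, and 0.982% of probes were nearer than it. All of these are descriptions over 6 hearts.

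WT A, TG-PKR1 A and TG-PKR1 C were the 3 highest hearts for 6 of the 13 member probes, which were both of Akt2, the brighter of Akt1 and 3 of the 4 of Pik3r1. This division was noticed after the values were seen, and it held for 20.6% of all probes (4121). As a median over the 8 kinase probes, the deviation from the WT mean was 0.30, -0.17 and -0.19 in the WT hearts and 0.39, -0.17 and 0.37 in the TG-PKR1 hearts. The median over the 12 cardiomyocyte markers had the same 3 hearts highest, with 0.17, -0.03 and -0.19 in WT and 0.43, -0.16 and 0.15 in TG-PKR1 hearts. Their summed signals were 1200000, 1097000 and 847600 in WT and 1452000, 873400 and 1043000 in TG-PKR1 hearts. By sum the 3 highest hearts were not the same, since WT B was above TG-PKR1 C. Mybpc3 adds a probe saturated on 2 of 6 arrays to these sums, which limits their order. The median of 6 smooth muscle markers also had WT A, TG-PKR1 A and TG-PKR1 C highest. Those of the endothelial cell, fibroblast and macrophage markers did not, and the fibroblast median was lowest in WT A (-0.25) and TG-PKR1 A (-0.24). The part of cell makeup in the kinase values was not tested. Within the extended-range arrays (1 WT, 2 TG-PKR1) the median kinase difference was -0.24, within the single-scan arrays (2 WT, 1 TG-PKR1) it was 0.56, and within the shared slide it was 0.57, so its direction did not hold within both scan modes.

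**Figure D3:**
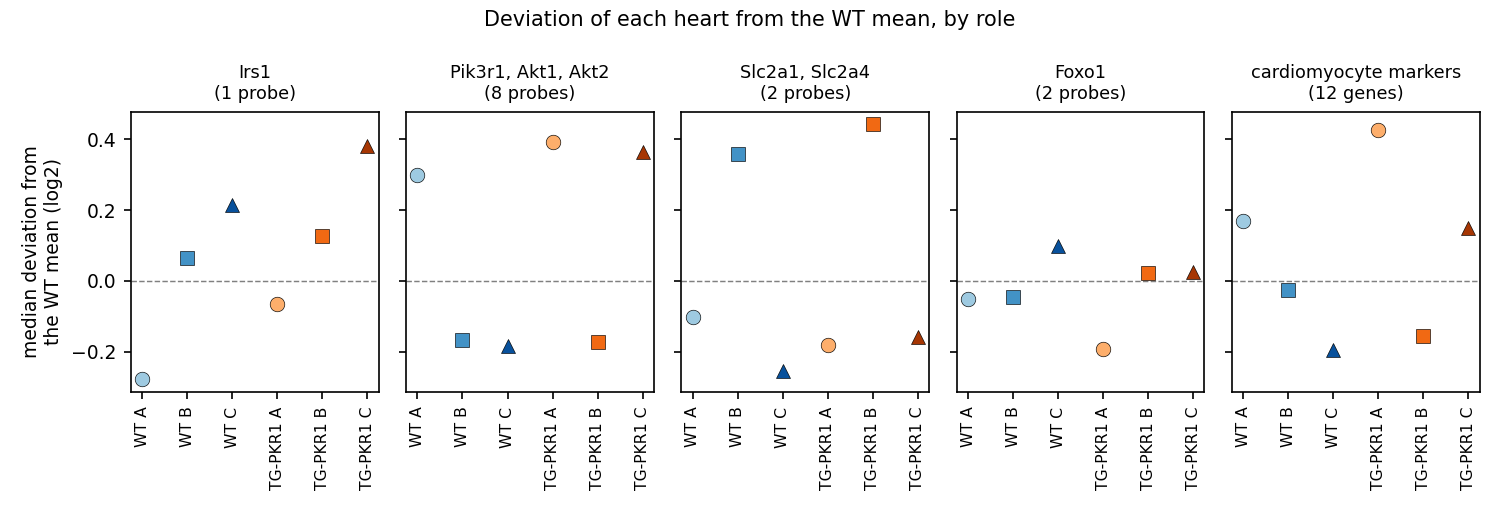
Median deviation from the WT mean in log2 units (y axis) in each of the 6 hearts (x axis), for Irs1 (1 probe), the kinase genes (8 probes), the glucose transporters (2 probes), Foxo1 (2 probes) and 12 cardiomyocyte marker genes. The kinase panel has WT A (0.30) with TG-PKR1 A and C (0.39 and 0.37) above the other hearts, and the transporter panel has WT B (0.36) and TG-PKR1 B (0.44) above the others.

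Promoter stretches of the 3 kinase genes are shown because 6 of their 8 probes had the same 3 hearts highest. In each, capitals mark the GC box, GGGCGG or, on the other strand, CCGCCC, the sequence that SP1 and related factors bind.
Pik3r1, minus strand, chr13:101768372-101768437: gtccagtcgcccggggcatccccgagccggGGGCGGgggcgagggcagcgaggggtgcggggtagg
Akt1, minus strand, chr12:112674352-112674417: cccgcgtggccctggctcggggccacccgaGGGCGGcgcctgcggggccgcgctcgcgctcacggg
Akt2, plus strand, chr7:27591420-27591485: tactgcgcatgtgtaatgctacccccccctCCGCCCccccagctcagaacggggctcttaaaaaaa
A GC box lay in at least 1 window of all 8 members that had one (8 of 13 windows, 61.5%), against 32.7% of all RefSeq windows, so it was not specific to the kinase genes. The FOXO element, GTAAACA or, on the other strand, TGTTTAC, lay in 1 of 13 member windows, the second of Akt1, and in 3.17% of all windows. It is shown because Foxo1 is among the measured genes.
Akt1, minus strand, chr12:112675009-112675075: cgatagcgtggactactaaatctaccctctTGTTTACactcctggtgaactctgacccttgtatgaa
The TATA box, TATAAA or, on the other strand, TTTATA, lay in 1 of 13 member windows, of Pik3r1, and in 12.4% of all. No GC box, FOXO element or TATA box shared bases with another motif in the stretches shown.

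The glucose transporters differed little between the groups, and both were highest in WT B and TG-PKR1 B. Slc2a1 encodes GLUT1, the transporter of basal uptake. Its probe A_51_P464738 (chr4:118635191-118635250, plus strand) gave 10.15, 10.42 and 9.85 in WT hearts and 10.02, 10.82 and 10.03 in TG-PKR1 hearts. TG-PKR1 B was the highest heart and TG-PKR1 A and C lay within the WT range, for a difference of 0.15 (SE 0.25, 95% interval -0.43 to 0.72, exact permutation p = 0.7). Without TG-PKR1 B the difference was -0.11.

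Slc2a4 encodes GLUT4, the insulin-regulated transporter of muscle and fat. It was read by 10 spots of probe A_51_P217498 (chr11:69758766-69758825, minus strand), with 14.88, 15.54 and 14.88 in WT hearts and 14.86, 15.31 and 14.89 in TG-PKR1 hearts. WT B and TG-PKR1 B stood above the others, and the remaining 4 hearts lay between 14.86 and 14.89. The difference was -0.08 (SE 0.22, 95% interval -0.59 to 0.43, exact permutation p = 0.7), and it was 0.14 without WT B and also 0.14 under scaling to the 75th percentile. Within the shared slide, which held the high WT B and TG-PKR1 A, the median difference of the transporters was -0.54, against 0.24 within the extended-range and -0.23 within the single-scan arrays.

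Some genes of fat cells, which also use GLUT4, were lower in the same TG-PKR1 hearts. Of 15 adipocyte markers, all with a probe, limma called 4 lower, with a median difference of -1.04, and the summed signal was 203000 to 299000 in WT hearts and 134300 to 159500 in TG-PKR1 hearts. Adipoq, the hormone adiponectin, differed by -1.93 (adjusted p = 0.0339), Plin1, a coat protein of lipid droplets, by -2.25 (adjusted p = 0.0339), and Cidec, a lipid droplet protein, by -2.02 (adjusted p = 0.0387). The 9 brown adipocyte markers had a median difference of -1.095. Their median deviation from the WT mean was -0.05, -0.17 and -0.03 in WT and -0.91, -1.03 and -1.34 in TG-PKR1 hearts. Their summed signal overlapped, with 226700 to 355600 in WT and 198800 to 255000 in TG-PKR1 hearts. Of them 1 was called lower, Ucp1, the uncoupling protein of brown fat, by -3.23 (adjusted p = 0.0445). Lep, the hormone leptin, was well above background on 2 arrays and differed by -0.14 (adjusted p = 1). Leaving out WT A, WT C, TG-PKR1 A or TG-PKR1 C left 0 calls over all probes, and leaving out TG-PKR1 B left 8. With scan mode as a block Adipoq, Plin1, Cidec and Ucp1 had adjusted p of 0.189 to 0.235, and these 4 calls were also lost with scaling to the 75th percentile, with all probes, with a detection filter and in the table of the authors. The differences themselves stayed large, from -2.01 to -1.78 for Adipoq, -2.43 to -2.04 for Plin1, -2.24 to -1.82 for Cidec and -3.63 to -2.81 for Ucp1 with a heart left out. Within each scan mode and the shared slide they were -2.30 to -1.62 for Adipoq and -2.48 to -2.09 for Plin1. For Cidec they were -2.59 to -1.49 there, and for Ucp1 -3.855 to -2.05. The part of fat cell RNA in the Slc2a4 and other member values was not tested.

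Foxo1, the transcription factor that AKT inactivates, had 2 probes with differences of opposite sign. Probe A_52_P453884 (chr3:52437296-52437355, plus strand) gave 9.67, 9.61 and 9.63 in WT hearts and 9.49, 9.55 and 9.44 in TG-PKR1 hearts. All 3 TG-PKR1 hearts lay below all 3 WT hearts, the only member probe without overlap, but the gap was 0.06 and the difference -0.14 (SE 0.14, 95% interval -0.46 to 0.18). The exact permutation test gave p = 0.1, the smallest it can give here, and limma an adjusted p of 0.9999. The pooled SD of this probe was 0.04, and 0.386% of all probes had a smaller one, while 64.0% had a smaller difference. It kept its sign in all settings tried, from -0.18 to -0.07. Probe A_51_P138044 (chr3:52434190-52434249) gave 9.87, 9.94 and 10.21 against 9.76, 10.14 and 10.26, a difference of 0.05 (SE 0.18, exact permutation p = 0.9). Here the lowest heart and the highest heart were both TG-PKR1, so that the small shift of the first probe was not seen with the second.

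Around the members, 115 further genes of the pathway were read with 1 probe each, the brightest. Of these, 112 had a probe and 97 lay among the 20000 brightest. Limma called 0 lower and 0 higher after adjustment, SAM called 0, and the median difference was close to 0 (0.0040), with 51 of 97 means higher in TG-PKR1 hearts. At an unadjusted p under 0.05 there were 3 lower and 3 higher, 6.19% of the 97 against 2.38% of all probes. None of the 6 had a call after adjustment, so their values are given as a description.

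Among the other glucose transporters, Slc2a5, the fructose transporter GLUT5, gave 7.03, 6.54 and 7.38 in WT and 6.27, 6.09 and 5.84 in TG-PKR1 hearts. The difference was -0.91 (SE 0.23, limma adjusted p = 0.727; -0.27 within the shared slide) and all TG-PKR1 hearts were lower, with the probe well above background on 4 of 6 arrays. The other 5 transporters of this list among the brightest probes were between -0.22 and 0.17.

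Among FOXO factors and the genes they or insulin regulate, 15 of 20 were among the brightest. Pdk4, the kinase that shuts off pyruvate dehydrogenase and so spares glucose, gave 13.82, 13.51 and 14.25 in WT and 13.63, 12.73 and 13.11 in TG-PKR1 hearts, a difference of -0.70 (SE 0.27) with TG-PKR1 A inside the WT range. Fbxo32, the muscle ubiquitin ligase atrogin-1, gave 10.96, 10.62 and 9.85 against 11.42, 11.14 and 10.95, a difference of 0.69 (SE 0.28) with WT A just above TG-PKR1 C. Sesn1, a sestrin that restrains mTORC1, gave 12.48, 13.20 and 12.57 against 13.25, 13.24 and 13.26. The TG-PKR1 hearts were almost alike and all above the WT hearts, with a difference of 0.50 (SE 0.20), and WT B lay just below them. Pdk4 was -0.25 within the single-scan arrays and 0.13 within the shared slide, Fbxo32 was 0.09 within the extended-range arrays, and Sesn1 was 0.05 within the shared slide. Known FOXO targets thus lay on both sides of 0, and the median of the list was 0.01.

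Among kinases and regulators around AKT, Deptor, an inhibitor bound to mTOR and named Depdc6 in the files, gave 10.64, 10.22 and 10.21 in WT and 9.75, 9.85 and 9.73 in TG-PKR1 hearts. All TG-PKR1 hearts were lower, with a difference of -0.58 (SE 0.17, limma adjusted p = 0.9999). Tsc1, part of the complex that holds mTORC1 back, gave 8.39, 8.23 and 8.23 against 8.85, 8.41 and 9.20, a difference of 0.54 (SE 0.21) with all TG-PKR1 hearts higher.

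**Figure D4:**
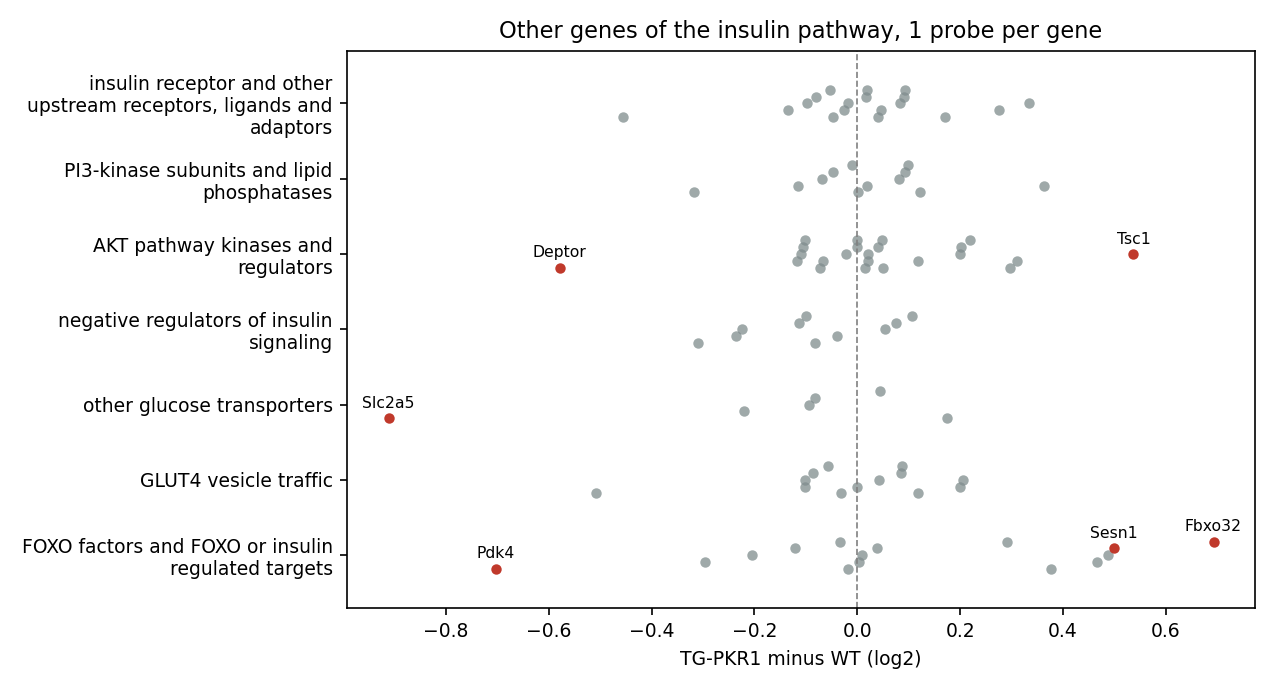
Difference TG-PKR1 minus WT in log2 units (x axis) for the 97 further pathway genes, 1 point per gene, by list (y axis), with genes at an unadjusted limma p under 0.05 in red and named. The points spread on both sides of 0, from -0.91 (Slc2a5) to 0.69 (Fbxo32), and none passed the adjusted threshold.

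The hearts of the groups did not overlap for 5 of these 97 genes lower in TG-PKR1 hearts and for 4 higher, beside 2.73% and 2.68% of all probes. The lower ones were Slc2a5, Deptor, Igf1 (-0.46, SE 0.20), the growth factor that shares this pathway, Trib3 (-0.31, SE 0.17), a pseudokinase that binds AKT, and Socs3 (-0.24, SE 0.17), a feedback inhibitor of receptor signaling. The higher ones included Tsc1, Sesn1 and Crk (0.28, SE 0.14), an adaptor protein. Socs3 was -0.12 within the single-scan arrays and -0.03 within the shared slide, and within the extended-range arrays Igf1 was -0.30 and Trib3 -0.16. Igf1, Trib3, Socs3 and Crk were singled out after their values were seen. Among the 10 negative regulators in the list of phosphatases, SOCS and TRIB proteins, 3 had a higher mean and the median was -0.09. The 18 upstream receptors, ligands and adaptors had a median of 0.02, the 12 kinase subunits and lipid phosphatases 0.01, and the 23 AKT pathway genes 0.02. The 13 genes of GLUT4 vesicle traffic ranged from -0.51 to 0.21 with 6 means higher in TG-PKR1 hearts.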

How the data were processed

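Members and gene lists were chosen with earlier results of these data known. The authors deposited, for each array, intensity values and software marks of 43379 non-control spots (Agilent Feature Extraction 9.5.1.1). The authors also deposited log2 values that had been fitted by LOWESS to a median profile, averaged over replicate probes and restricted to bright probes. Column medians of that table were 9.46 to 9.53, and each column correlated with its own array (r from 0.997). Its additive offset is not given in the sources used here.

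Here, log2 median signals, with no background subtracted and control and outlier spots removed, were brought to the median of the 6 arrays by loess (span 0.3, 4 iterations). Values were averaged by probe, and the brightest 20000 by median entered the test. Groups came from the labels. limma 3.58.1 (lmFit, eBayes) in R 4.3.3 compared 3 with 3 hearts, with Benjamini-Hochberg adjustment and a threshold of 0.05, and was tested on simulated data. The number of arrays and the signal over background limit precision. Gene names were updated by accession in a RefSeq table for 24375 probes and taken by name for 16799. The positions of probes are those the files give (mm8), and their place in exons or UTRs was not analysed here.

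Named were all member probes, pathway genes with an unadjusted limma p under 0.05, the 5 profiles nearest to the member probe with the largest difference in the main setting, and fat cell and cardiomyocyte markers that bear on a result. A few others are named in the text as singled out after their values were seen. Alternatives were other signals, normalizations, filters, tests and batch terms, and leaving out each heart. One gene of the pathway lists is counted but not reported here by name.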

Additional observations from a re-analysis of the deposited data

How the results depend on the processing

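In every setting with a test, 0 member probes were called (the values within scan modes and within the shared slide have none), and the lowest adjusted p of a member was 0.828 (Pik3r1). The count of all probes called lower, 19, was 29 with processed signals scaled to the 75th percentile, a change of both signal and scaling. It was 33 with quantile normalization, 31 with a trend in eBayes and 54 with SAM. It was 0 with scaling of the median signals to the 75th percentile, with all probes, with a filter for detection on at least 3 arrays, in the table of the authors and with scan mode as a block, and 0 to 19 when a heart was left out. Of 246 values that answer a comparison, 24 moved by more than 1 SD between hearts (counts by more than 1.5 times). Of the medians that moved less, 10 changed sign. These were the receptor and substrate probes, which gain dim probes there, with all probes (-0.070), with the detection filter (-0.070) and in the table of the authors (-0.033), Foxo1 with the 75th percentile (0.041), the transporters within the single-scan arrays (-0.23), and 5 of the transporters or Foxo1 with a heart left out (-0.17 to 0.024). The median difference within the extended-range arrays was -0.080 over all members, 0.53 for Irs1, -0.24 for the kinases and 0.076 for Foxo1. Within the single-scan arrays it was -0.20 for Irs1, 0.56 for the kinases and -0.22 for Foxo1, and within the shared slide -0.13 for Irs1, 0.57 for the kinases and -0.54 for the transporters. Foxo1 A_51_P138044 changed sign with processed signals scaled to the 75th percentile (-0.073) and with normexp and quantile normalization (-0.00133). Akt1 A_52_P418014 (-0.27), Slc2a4 (0.14) and Centg3 (-0.16) changed sign with scaling to the 75th percentile. The cause was not tested. With a heart left out, ranges across 0 were -0.054 to 0.68 for Pik3r1 A_51_P511236, -0.00372 to 0.37 for Pik3r1 A_52_P307938, -0.043 to 0.37 for Akt1 A_51_P237553, -0.00312 to 0.49 for Akt2 A_52_P2977, -0.11 to 0.29 for Slc2a1, -0.22 to 0.14 for Slc2a4, -0.056 to 0.19 for Foxo1 A_51_P138044, -0.16 to 0.21 for Mybpc3 (saturated on 2 arrays), -0.16 to 0.14 for Myl2 and -0.17 to 0.19 for Myl3. The slide as a random block could not be fitted, since only 1 slide held 2 arrays. No paired analysis was possible because WT and TG-PKR1 hearts share only 1 number in the labels, which follows the slide. Insr and 1 Irs1 probe were near background, which limits what they can show.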
